A study of Mus musculus with 8 samples.

Results

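The collagen genes of the mouse were examined in 3 populations of thymic epithelial cells (TECs). A gene was counted as a collagen gene when its symbol had the form Col, a type number, the letter a, and a chain number. This rule found 44 of the 55450 genes in the count table, from 27 collagen types, and they were divided into 10 basement membrane, 11 fibrillar, and 23 other genes. All 44 had enough counts to be tested.

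The TECs were sorted as CD45-EpCAM+ cells from the thymus at day 17 of embryonic development. The embryos carried 2 reporters, a tdTomato sequence knocked into *Ccl21a* and a Venus transgene driven by *Tnfrsf11a*, the gene for RANK, and the cells of every group came from such RANK-Venus/CCL21a-tdTomato embryos. The groups sequenced were CCL21+RANK- TECs (3 libraries), CCL21-RANK+ TECs (3 libraries), and CCL21-RANK- TECs (2 libraries), and the fluorescent reporters, not the proteins, defined them. No treatment was applied. The study used both sexes in its experiments, the strain of these embryos and the number pooled per library are not given in the sources used here, and p-values measure only the spread between these libraries.

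Collagens are secreted proteins in which 3 chains wind into a triple helix. Type IV collagen forms the sheet-like network of basement membranes, where it is joined by laminins, nidogens, and the heparan sulfate carriers perlecan and agrin, and types XV and XVIII are also found at basement membranes. Fibrillar collagens such as types I, II, and V assemble into the fibres of connective tissue and cartilage. In the thymus, TECs make basement membrane, while fibrillar collagen is known mainly as a product of mesenchymal cells, and medullary TECs that carry the regulator Aire transcribe many genes of other tissues.

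The libraries held 59677315, 46003128, and 55116911 counts in CCL21+RANK- TECs, 57286762, 50146730, and 42751839 in CCL21-RANK+ TECs, and 67451440 and 71625282 in CCL21-RANK- TECs. Levels are given as RPKM, counts scaled by exon length in kilobases and by library total, in the order of the replicate numbers. *Ccl21a*, the sorted chemokine gene, was at 561, 346, and 306 RPKM in CCL21+RANK- TECs, at 152, 96.0, and 78.2 RPKM in CCL21-RANK+ TECs, and at 6.88 and 8.87 RPKM in CCL21-RANK- TECs. *Ccl21a* has near-identical copies in the genome, so its counts are uncertain. *Tnfrsf11a* was at 8.78, 9.44, and 10.3 RPKM, at 110.8, 93.1, and 107 RPKM, and at 2.62 and 2.26 RPKM in the same order. Each reporter gene was highest in the group named for it, although *Ccl21a* transcripts were also present in CCL21-RANK+ TECs.

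Libraries within a group were not alike. Replicate 1 of the CCL21-RANK+ TECs had the highest level of its group for 37 of the 44 collagen genes (84.1%), against 49.6% of all 21451 genes tested. Its macrophage markers were also highest, with a summed level of 82.6 RPKM against 22.9 and 28.3 RPKM in the other CCL21-RANK+ libraries. Replicate 1 of the CCL21+RANK- TECs held 7122 RPKM of parathyroid markers, against 1750 and 1955 RPKM in the other libraries of its group. The fit was therefore repeated without each library in turn. In the counts of called collagen genes and of called genes per class and list below, a range in square brackets gives the lowest and highest count when 1 library was left out, and counts with no range were the same each time, apart from those by the adjusted p alone or by DESeq2's Wald test, for which no range is given.

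CCL21-RANK+ cells differed from both other populations in the kind of collagen gene expressed. Relative to CCL21-RANK+ cells, CCL21+RANK- cells had higher levels of 10 genes that included *Col4a1*, *Col4a2*, *Col4a5*, *Col4a6*, *Col18a1*, *Col6a1*, *Col8a2*, and *Col27a1*. They had lower levels of 13 genes that included *Col1a1*, *Col14a1*, *Col6a5*, and *Col22a1*. Genes were called in the quasi-likelihood test of edgeR when the Benjamini-Hochberg adjusted p was below 0.05, the fold exceeded 1.5, and the higher group averaged above 1 RPKM. Between these 2 groups 10 collagen genes were called higher in CCL21+RANK- cells [8 to 10] and 13 higher in CCL21-RANK+ cells [12 to 17], or 22.7% and 29.5% of the members, beside 15.4% of all genes tested in each direction. By the adjusted p alone, 20 members were higher in CCL21-RANK+ cells beside 30.6% of all genes, and 10 were higher in CCL21+RANK- cells beside 23.1%. Between CCL21-RANK+ cells and CCL21-RANK- cells, 17 members were called higher in CCL21-RANK+ cells [15 to 18] (background 14.4%) and 10 higher in CCL21-RANK- cells [6 to 10] (background 15.1%), the count of 6 being without CCL21-RANK- replicate 2.

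Between the populations sorted as negative for the RANK reporter, the members were called about as often as all genes in the edgeR test. *Col6a5* and *Col6a4* were called higher in CCL21+RANK- cells [2 to 3], or 4.55% of the members beside a background of 4.35%, and *Col13a1* and *Col8a2* were called higher in CCL21-RANK- cells [1 to 3], or 4.55% beside 3.66%. *Col8a2* alone was left without CCL21-RANK- replicate 2 or CCL21+RANK- replicate 1 or 3. By DESeq2's Wald test 6 members were higher in CCL21+RANK- cells, beside 5.74% of all genes, and 2 in CCL21-RANK- cells, beside 3.99%. The median log2 fold change over the members was -1.10 for CCL21+RANK- over CCL21-RANK+ cells, 0.20 for CCL21+RANK- over CCL21-RANK- cells, and 1.27 for CCL21-RANK+ over CCL21-RANK- cells. For all genes tested the medians were -0.11, 0.00, and 0.06. With genes at 0 in a group set to their bound, the members' medians were the same. The 3 comparisons share libraries, so the 13 genes called higher [11 to 16] and the 9 called lower [6 to 9] in CCL21-RANK+ cells than in both other groups are not counted from independent tests; of all genes, 11.8% were called higher and 11.7% lower than in both.

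**Figure D1:**
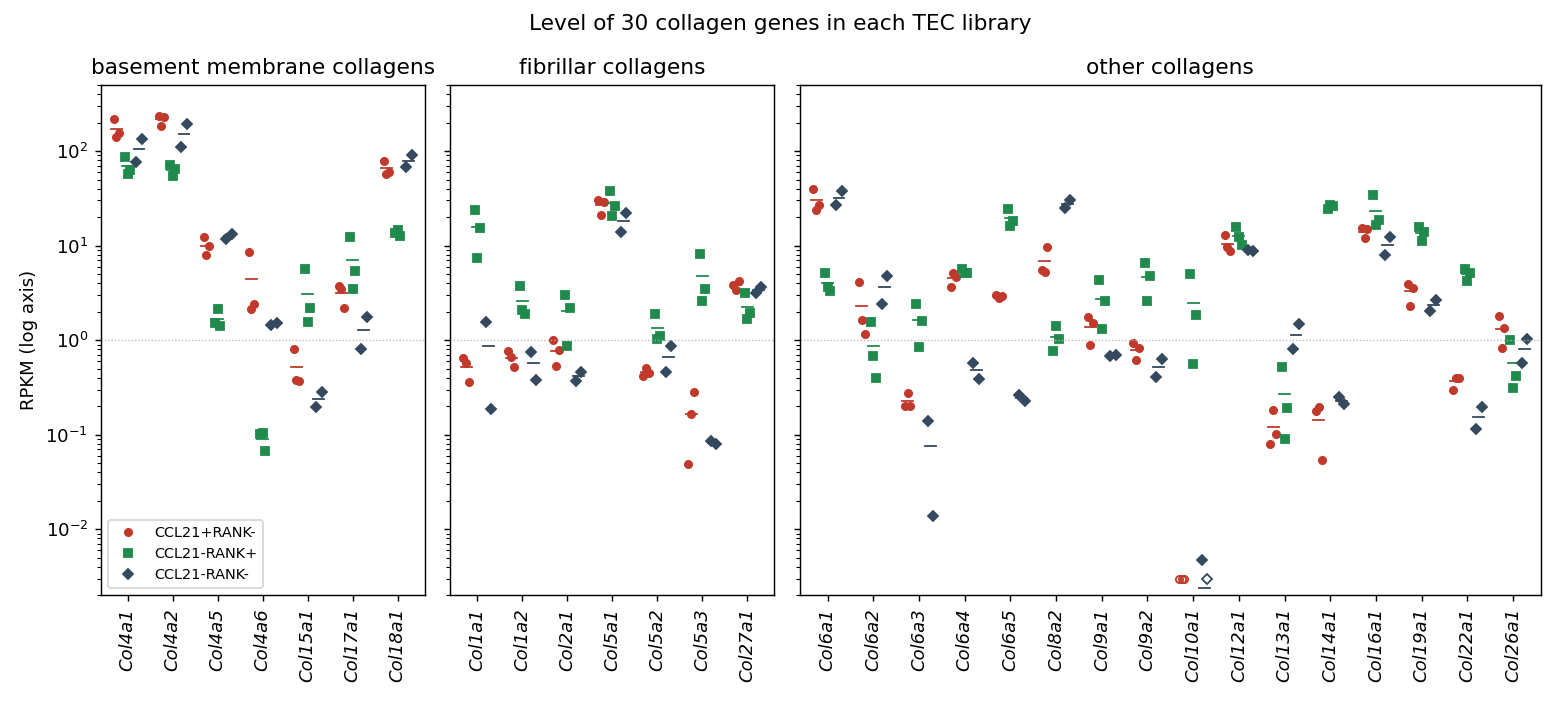
RPKM on a log axis (vertical) of the 30 collagen genes with a mean over 1 RPKM in at least 1 group, by class. Each symbol is a library, horizontal marks are group means, open symbols at the bottom are libraries at 0, and the dotted line marks 1 RPKM. The CCL21-RANK+ libraries lie below both other groups for *Col4a2*, *Col4a5*, *Col4a6*, *Col18a1*, and *Col6a1*, and above them for *Col1a1*, *Col5a3*, *Col14a1*, *Col6a5*, and *Col22a1*.

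By class, most called basement membrane genes were higher in CCL21+RANK- cells than in CCL21-RANK+ cells, and most called fibrillar genes were lower. Of the 10 basement membrane genes, 5 (50%) were called higher and 1 (10%) lower [1 to 3]. Of the 11 fibrillar genes, 1 (9.09%) was called higher and 5 (45.5%) lower [4 to 5]. The background was 15.4% of all genes in each direction, and the single opposing calls were near it. The count of 3 came without CCL21-RANK+ replicate 2, which added *Col7a1* and *Col17a1*. The median log2 fold changes of the 2 classes were 0.21 and -1.18. Of the 23 other genes, 4 (17.4%) were called higher [2 to 4] and 7 (30.4%) lower [7 to 9], and the count of 2 came without CCL21+RANK- replicate 1 or CCL21-RANK+ replicate 2 or 3. Between CCL21-RANK+ cells and CCL21-RANK- cells, 5 fibrillar genes (45.5%) were higher [4 to 6] and 1 (9.09%), *Col27a1*, lower [0 to 1] in CCL21-RANK+ cells, a call lost without either CCL21-RANK- library or CCL21-RANK+ replicate 2 or 3, while 2 basement membrane genes (20%) were higher and 5 (50%) lower [4 to 5], beside 14.4% and 15.1% of all genes.

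The summed level of the basement membrane genes was 556, 397, and 462 RPKM in CCL21+RANK- cells, 194, 135, and 149 RPKM in CCL21-RANK+ cells, and 270.2 and 436 RPKM in CCL21-RANK- cells. All 3 CCL21-RANK+ libraries lay below the other 5. Fibrillar genes summed to 38.1, 27.9, and 35.8 RPKM, to 84.2, 37.9, and 53.5 RPKM, and to 22.2 and 29.1 RPKM, and replicate 2 of the CCL21-RANK+ cells lay just below the highest CCL21+RANK- library. *Col4a1* and *Col4a2* took 65.1% ± 0.798 (SD, n = 3) of all collagen counts in CCL21+RANK- cells, 36.2% ± 1.77 (SD, n = 3) in CCL21-RANK+ cells, and 54.4% ± 5.05 (SD, n = 2) in CCL21-RANK- cells. Collagen counts as a whole were 0.417% ± 0.0701 (SD, n = 3), 0.261% ± 0.0607 (SD, n = 3), and 0.325% ± 0.0952 (SD, n = 2) of the library. In bulk samples, fewer cells that express a gene and less RNA of it per cell cannot be told apart.

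**Figure D2:**
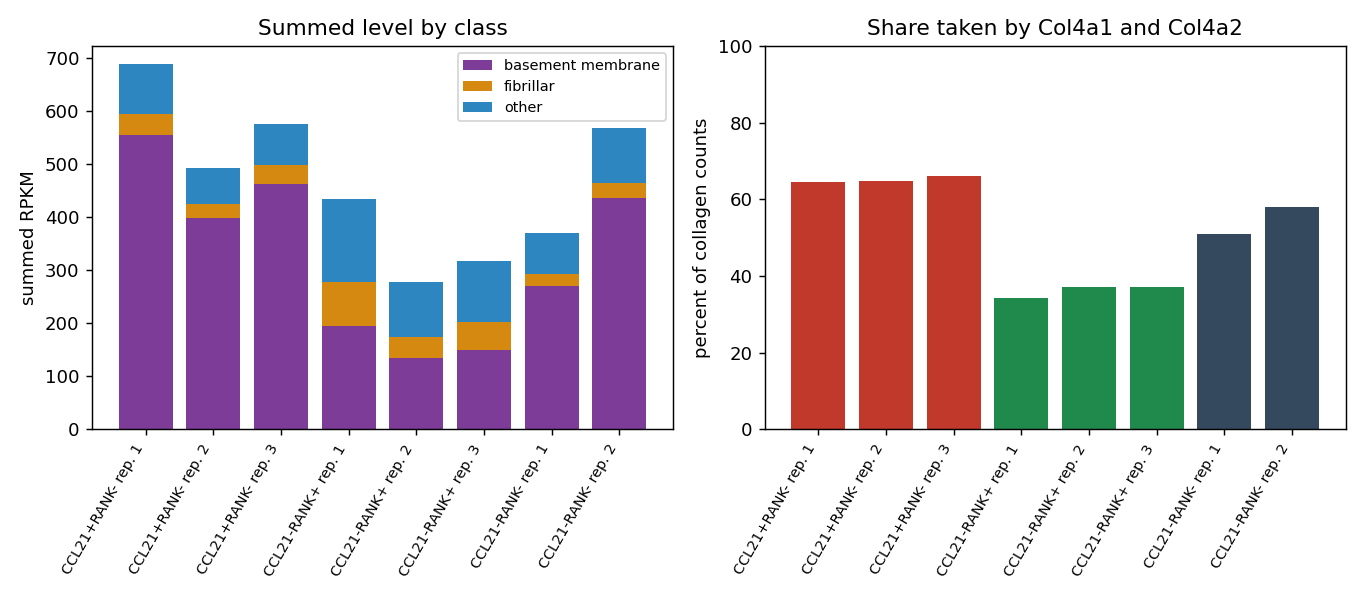
Left, summed RPKM of the collagen genes in each library, stacked by class. Right, percent of the collagen counts in each library that came from *Col4a1* and *Col4a2*, with bars from 34.2% to 37.2% in CCL21-RANK+ cells and from 50.8% to 66.0% in the other libraries.

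The type IV genes stand in head-to-head pairs, and each pair is transcribed outward from neighbouring starts. On GRCm38, *Col4a1* (chromosome 8, minus strand) begins at 11312826 and *Col4a2* (plus strand) at 11312805, so their first exons overlap by 22 bases. *Col4a6* begins on the minus strand of chromosome X at 141474076 and *Col4a5* on the plus strand at 141475385, with 1308 bases between them. *Col4a4* and *Col4a3* begin at 82586849 and 82586921 on chromosome 1, with 71 bases between them. The 120 bases before the start of each member of the *Col4a6* and *Col4a5* pair are shown because their transcripts were in a less equal proportion than those of *Col4a1* and *Col4a2*. The bases come from RefSeq promoter entries of GRCm38.p6, which matched 35 of the 44 members, each window ends before the more upstream of the RefSeq and GENCODE starts, and capitals mark the motif GGGCGG or its complement on the other strand.
Col4a6, chrX:141474077-141474196, minus strand: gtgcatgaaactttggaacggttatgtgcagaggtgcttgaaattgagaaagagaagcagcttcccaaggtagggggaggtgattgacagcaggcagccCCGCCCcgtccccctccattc
Col4a5, chrX:141475265-141475384, plus strand: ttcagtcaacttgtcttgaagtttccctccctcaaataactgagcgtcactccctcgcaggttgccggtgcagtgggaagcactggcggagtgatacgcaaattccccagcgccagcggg

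The *Col4a6* window holds 1 copy of the motif, beginning 21 bases before the start, and the *Col4a5* window has no match. Counted from the RefSeq start alone, a match was present before *Col4a5*. Windows of 120 bases before RefSeq starts were searched on both strands for the GC box GGGCGG, for the CCAAT box, and for the TATA box TATAAA, and matches of different motifs may share bases. GGGCGG was present before 18 of the 35 matched members (51.4%) and before 26.9% of 27025 genes, CCAAT before 5 members (14.3%) and 22.1% of genes, and TATAAA before 3 members (8.57%) and 6.76% of genes. These are matches of letters, not binding sites.

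*Col4a1* and *Col4a2* encode the chains of the common type IV network and were the most abundant collagen transcripts in every group. *Col4a1* was at 216, 140.2, and 155 RPKM in CCL21+RANK- cells, at 87.3, 57.5, and 62.4 RPKM in CCL21-RANK+ cells, and at 77.3 and 135 RPKM in CCL21-RANK- cells. The CCL21+RANK- libraries all exceeded the CCL21-RANK+ libraries, but the latter overlapped CCL21-RANK- cells. The log2 fold change of CCL21+RANK- over CCL21-RANK+ cells was 1.43 (SE 0.22, adjusted p = 0.000507). Against CCL21-RANK- cells, CCL21-RANK+ cells were lower by a log2 fold change of -0.73 (SE 0.24, adjusted p = 0.0308). This call was lost with DESeq2's size factors (adjusted p = 0.0863) and Wald test (-0.58, a fold under 1.5), upper-quartile scaling (adjusted p = 0.0571), at least 10 counts in every library (adjusted p = 0.117), and the replicate block (adjusted p = 0.0642), and without CCL21-RANK- replicate 2 (-0.36, adjusted p = 0.335), CCL21-RANK+ replicate 2 (adjusted p = 0.0875) or 3 (adjusted p = 0.122), or CCL21+RANK- replicate 2 (adjusted p = 0.0552).

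*Col4a2* was at 236, 185, and 232 RPKM in CCL21+RANK- cells, at 71.4, 55.1, and 64.3 RPKM in CCL21-RANK+ cells, and at 111 and 192 RPKM in CCL21-RANK- cells. The CCL21-RANK+ libraries lay below all others. Its log2 fold change was 1.89 (SE 0.17, adjusted p = 1.61e-05) for CCL21+RANK- over CCL21-RANK+ cells and -1.36 (SE 0.19, adjusted p = 0.000264) for CCL21-RANK+ over CCL21-RANK- cells. The ratio of *Col4a1* to *Col4a2*, both per exon length, was 0.915, 0.757, and 0.671 in CCL21+RANK- cells and 1.22, 1.04, and 0.970 in CCL21-RANK+ cells. The log2 difference of -0.47 had a two-sided exact permutation p of 0.1, the smallest that 3 libraries against 3 can give. Neither gene was called between CCL21+RANK- cells and CCL21-RANK- cells (log2 fold changes of 0.70 and 0.54, adjusted p = 0.11 and 0.109), although *Col4a2* was called without CCL21-RANK- replicate 2 (0.89).

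*Col4a5* and *Col4a6* encode chains of a second type IV network that is found in epithelial basement membranes. *Col4a5* was at 12.2, 7.99, and 9.81 RPKM in CCL21+RANK- cells, at 1.52, 2.13, and 1.41 RPKM in CCL21-RANK+ cells, and at 11.8 and 13.4 RPKM in CCL21-RANK- cells. *Col4a6* was at 8.56, 2.16, and 2.43 RPKM, at 0.101, 0.105, and 0.0675 RPKM, and at 1.45 and 1.52 RPKM in the same order. Both were lower in all 3 CCL21-RANK+ libraries than in the other 5. For *Col4a5* the log2 fold change of CCL21+RANK- over CCL21-RANK+ cells was 2.68 (SE 0.20, adjusted p = 4.94e-06), and for *Col4a6* it was 5.70 (SE 0.58, adjusted p = 3e-05). Without CCL21+RANK- replicate 1, the library richest in parathyroid markers, the value for *Col4a6* was 4.76 (adjusted p = 2.13e-06). CCL21-RANK+ cells were also lower than CCL21-RANK- cells, by -3.01 (SE 0.22, adjusted p = 4.65e-06) for *Col4a5* and -4.13 (SE 0.57, adjusted p = 0.000283) for *Col4a6*.

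The 2 neighbours were not expressed in a fixed proportion. The ratio of *Col4a6* to *Col4a5*, per exon length, was 0.6995, 0.270, and 0.248 in CCL21+RANK- cells, 0.0664, 0.0493, and 0.0478 in CCL21-RANK+ cells, and 0.123 and 0.114 in CCL21-RANK- cells. The ranges of the 3 groups did not overlap. The two-sided exact permutation p was 0.1 for CCL21+RANK- against CCL21-RANK+ cells and 0.2 for each against CCL21-RANK- cells, which are the smallest values these group sizes allow. *Col4a3* and *Col4a4*, the remaining chains, reached at most 0.263 RPKM in any library, too low to be called. On the log2 scale CCL21+RANK- over CCL21-RANK+ cells gave -4.50 (SE 1.29, adjusted p = 0.0165) and -3.30 (SE 1.31, adjusted p = 0.0572). Without CCL21-RANK+ replicate 1 these were -3.91 and -1.56 (adjusted p = 0.0396 and 0.355), and all *Col4a3* counts of CCL21+RANK- cells lay in replicate 1.

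Types XV, XVII, and XVIII did not move as 1 class. *Col18a1*, whose product carries heparan sulfate and releases endostatin, was at 78.7, 57.7, and 60.2 RPKM in CCL21+RANK- cells, at 13.4, 14.6, and 12.8 RPKM in CCL21-RANK+ cells, and at 67.6 and 90.8 RPKM in CCL21-RANK- cells. The CCL21-RANK+ libraries agreed closely and lay far below the rest, with log2 fold changes of 2.39 (SE 0.16, adjusted p = 2.34e-06) for CCL21+RANK- over CCL21-RANK+ cells and -2.65 (SE 0.17, adjusted p = 2.33e-06) for CCL21-RANK+ over CCL21-RANK- cells. *Col15a1*, the close relative of *Col18a1*, was at 0.800, 0.384, and 0.374 RPKM, at 5.59, 1.54, and 2.17 RPKM, and at 0.199 and 0.282 RPKM in the same order. It went the other way, with log2 fold changes of -2.42 (SE 0.47, adjusted p = 0.00192) and 3.55 (SE 0.59, adjusted p = 0.000853). Without CCL21-RANK+ replicate 1 these values were -1.75 and 2.88, and both calls remained.

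*Col17a1*, a transmembrane collagen of hemidesmosomes, was at 3.72, 3.48, and 2.18 RPKM in CCL21+RANK- cells, at 12.4, 3.49, and 5.42 RPKM in CCL21-RANK+ cells, and at 0.809 and 1.76 RPKM in CCL21-RANK- cells. The first 2 groups overlapped, and the difference between CCL21-RANK+ cells and CCL21-RANK- cells was called (log2 fold change 2.34, SE 0.52, adjusted p = 0.00451, and 1.74 without CCL21-RANK+ replicate 1). That between CCL21+RANK- cells and CCL21-RANK+ cells (-1.02, SE 0.43, adjusted p = 0.0672) was called when CCL21-RANK+ replicate 2 was left out (-1.33, adjusted p = 0.0202). Without CCL21-RANK+ replicate 1 this difference was -0.41 (adjusted p = 0.335). *Col7a1*, which forms anchoring fibrils, was at 0.143, 0.110, and 0.108 RPKM, at 1.68, 0.440, and 0.559 RPKM, and at 0.133 and 1.09 RPKM. It averaged under 1 RPKM in each group and was therefore not called, with log2 fold changes of -2.73 (SE 0.71, adjusted p = 0.009) for CCL21+RANK- over CCL21-RANK+ cells and -2.28 (SE 0.74, adjusted p = 0.0824) for CCL21+RANK- over CCL21-RANK- cells. It met the call rule in the first comparison without CCL21-RANK+ replicate 2 (-3.04, adjusted p = 0.0085) or 3 (-3.02, adjusted p = 0.0136). Without CCL21-RANK+ replicate 1 the first value was -1.97 (adjusted p = 0.0307). The second value was -3.10 without CCL21-RANK- replicate 1. That difference rested on CCL21-RANK- replicate 2, since replicate 1, at 0.133 RPKM, lay within the CCL21+RANK- range.

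Among the fibrillar genes, *Col1a1* and *Col5a3* showed the largest called differences in both comparisons with CCL21-RANK+ cells. *Col1a1*, a chain of the main collagen of connective tissue, was at 0.641, 0.576, and 0.362 RPKM in CCL21+RANK- cells, at 24.01, 7.43, and 15.4 RPKM in CCL21-RANK+ cells, and at 1.57 and 0.187 RPKM in CCL21-RANK- cells. All CCL21-RANK+ libraries were above the others, with a log2 fold change of CCL21+RANK- over CCL21-RANK+ cells of -4.73 (SE 0.73, adjusted p = 0.000469). For CCL21-RANK+ over CCL21-RANK- cells it was 3.96 (SE 0.83, adjusted p = 0.00334), but 6.30 when CCL21-RANK- replicate 1 was left out and 3.10 when replicate 2 was. *Col1a2*, its partner chain, was at 0.765, 0.658, and 0.523 RPKM, at 3.79, 2.08, and 1.91 RPKM, and at 0.754 and 0.380 RPKM, with log2 fold changes of -1.85 (SE 0.33, adjusted p = 0.00117) and 2.03 (SE 0.39, adjusted p = 0.00197). The latter was 2.70 without CCL21-RANK- replicate 1.

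Type I collagen commonly holds 2 chains from *Col1a1* for each from *Col1a2*. The transcript ratio of *Col1a1* to *Col1a2*, per exon length, was 0.838, 0.876, and 0.693 in CCL21+RANK- cells and 6.34, 3.57, and 8.05 in CCL21-RANK+ cells, with no overlap. The two-sided exact permutation p was 0.1, the smallest possible. The ratios in CCL21-RANK- cells were 2.08 and 0.493.

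*Col5a3*, a minor chain of type V collagen, was at 0.0492, 0.166, and 0.285 RPKM in CCL21+RANK- cells, at 8.19, 2.61, and 3.47 RPKM in CCL21-RANK+ cells, and at 0.0849 and 0.0800 RPKM in CCL21-RANK- cells. Its log2 fold changes were -4.71 (SE 0.59, adjusted p = 0.000117) for CCL21+RANK- over CCL21-RANK+ cells and 5.70 (SE 0.74, adjusted p = 0.000187) for CCL21-RANK+ over CCL21-RANK- cells. *Col5a1*, which encodes the chain present in most type V molecules, was the most abundant fibrillar transcript in every group, at 30.3, 21.1, and 28.7 RPKM, at 37.8, 20.7, and 26.4 RPKM, and at 14.1 and 22.2 RPKM. The groups overlapped and it was not called in any comparison, with a log2 fold change of 0.04 (SE 0.20, adjusted p = 0.877) for CCL21+RANK- over CCL21-RANK+ cells, whose sign turned in other scalings. For CCL21-RANK+ over CCL21-RANK- cells it was 0.52 (SE 0.23, adjusted p = 0.0841), and this difference was called without CCL21-RANK+ replicate 2 (0.69, adjusted p = 0.0285) and under other scalings.

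*Col5a2* was at 0.421, 0.510, and 0.446 RPKM in CCL21+RANK- cells, at 1.91, 1.03, and 1.12 RPKM in CCL21-RANK+ cells, and at 0.462 and 0.862 RPKM in CCL21-RANK- cells. It was called between CCL21+RANK- cells and CCL21-RANK+ cells (log2 fold change -1.42, SE 0.28, adjusted p = 0.00209). The call between CCL21-RANK+ cells and CCL21-RANK- cells (0.92, SE 0.31, adjusted p = 0.0349) was lost without CCL21-RANK- replicate 1 (0.58, adjusted p = 0.262) or CCL21-RANK+ replicate 1 (0.65, adjusted p = 0.09). It was also lost when only these libraries were fitted (adjusted p = 0.0507).

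*Col2a1*, the main cartilage collagen, was at 1.01, 0.534, and 0.779 RPKM in CCL21+RANK- cells, at 3.00, 0.867, and 2.17 RPKM in CCL21-RANK+ cells, and at 0.374 and 0.461 RPKM in CCL21-RANK- cells. CCL21-RANK+ replicate 2 lay within the CCL21+RANK- range. The log2 fold change of CCL21+RANK- over CCL21-RANK+ cells was -1.24 (SE 0.37, adjusted p = 0.0179), and the call was lost without CCL21+RANK- replicate 2 (adjusted p = 0.0685) or 3 (adjusted p = 0.0545), or CCL21-RANK+ replicate 1 (-0.89, adjusted p = 0.0648) or 3 (adjusted p = 0.0511). For CCL21-RANK+ over CCL21-RANK- cells it was 2.13 (SE 0.45, adjusted p = 0.00333).

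*Col27a1*, a fibrillar collagen of cartilage and epithelia, was the only fibrillar gene called lower in CCL21-RANK+ cells. It was at 3.84, 3.41, and 4.22 RPKM in CCL21+RANK- cells, at 3.19, 1.66, and 1.94 RPKM in CCL21-RANK+ cells, and at 3.13 and 3.63 RPKM in CCL21-RANK- cells. The log2 fold change was 0.89 (SE 0.18, adjusted p = 0.00257) for CCL21+RANK- over CCL21-RANK+ cells. For CCL21-RANK+ over CCL21-RANK- cells it was -0.71 (SE 0.20, adjusted p = 0.015), and this call was lost with DESeq2's size factors (adjusted p = 0.0674) and Wald test (adjusted p = 0.0519), with at least 10 counts in every library (adjusted p = 0.0886), and without CCL21-RANK- replicate 1 (adjusted p = 0.0555) or 2 (adjusted p = 0.0821), or CCL21-RANK+ replicate 2 (-0.55, adjusted p = 0.0367, a fold under 1.5) or 3 (adjusted p = 0.0891). *Col3a1*, *Col11a1*, *Col11a2*, and *Col24a1* had means under 1 RPKM in all groups and were not called.

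**Figure D3:**
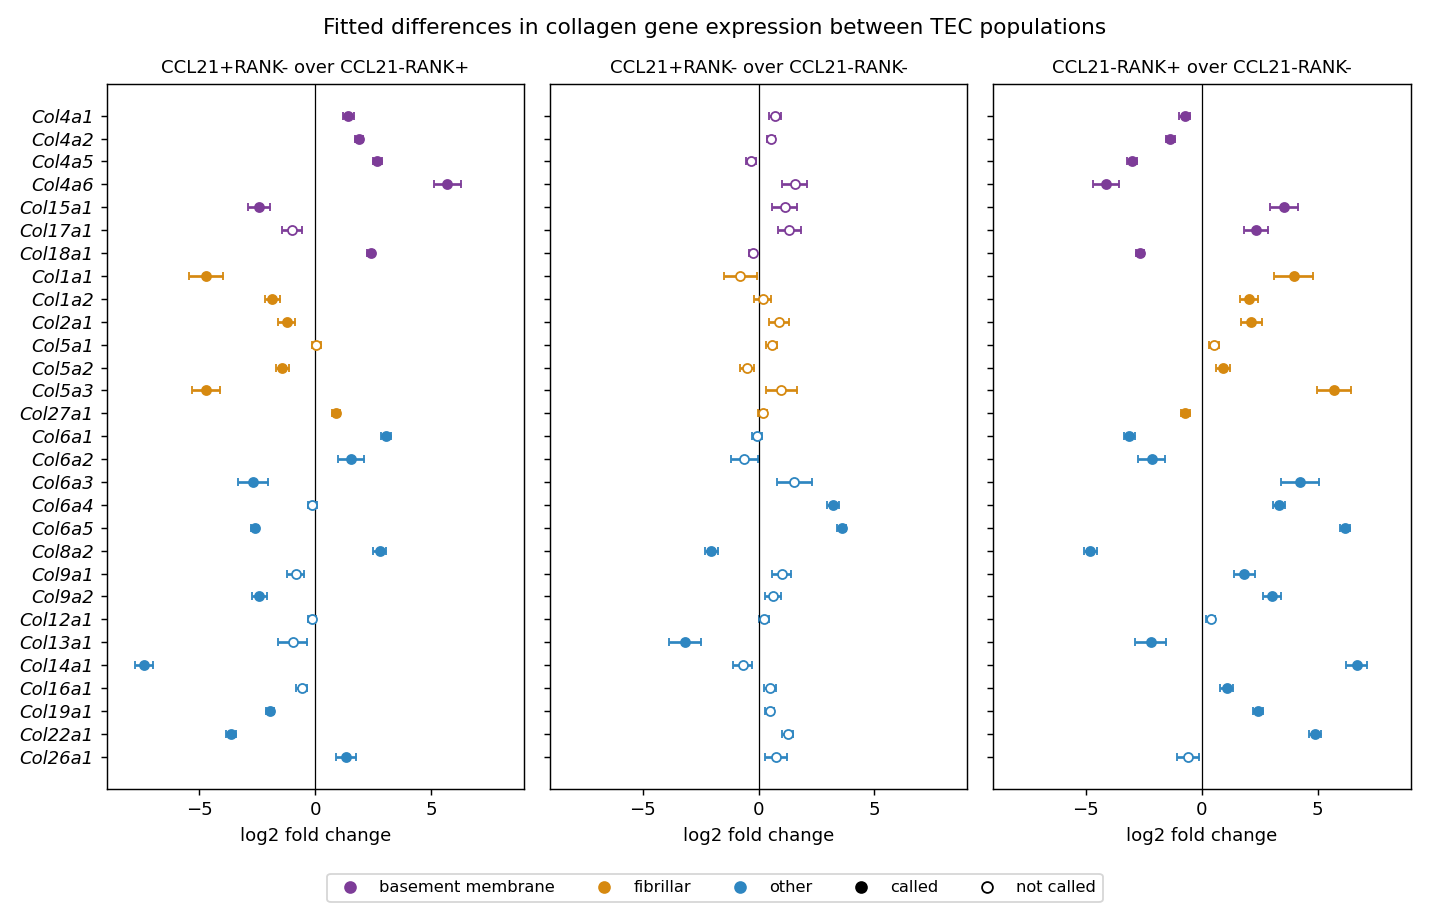
Log2 fold change (horizontal) with its standard error for 29 collagen genes in the 3 comparisons, coloured by class, with filled symbols for called genes. *Col10a1* is left out because it was at 0 in all CCL21+RANK- libraries. Values in the left and right panels lie mostly on opposite sides of 0, with *Col14a1* at -7.37 and 6.69, and the groups they compare share the CCL21-RANK+ libraries.

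Type VI collagen makes beaded filaments near the cell surface, and its chains did not move together. *Col6a1* was at 39.97, 24.03, and 26.99 RPKM in CCL21+RANK- cells, at 5.09, 3.64, and 3.30 RPKM in CCL21-RANK+ cells, and at 26.98 and 37.5 RPKM in CCL21-RANK- cells. The CCL21-RANK+ libraries were far below the rest, with log2 fold changes of 3.04 (SE 0.22, adjusted p = 3.51e-06) for CCL21+RANK- over CCL21-RANK+ cells and -3.12 (SE 0.23, adjusted p = 5.16e-06) for CCL21-RANK+ over CCL21-RANK- cells. *Col6a2* was at 4.13, 1.64, and 1.17 RPKM, at 1.54, 0.687, and 0.399 RPKM, and at 2.41 and 4.81 RPKM. Its first 2 groups overlapped. The log2 fold change was 1.55 (SE 0.55, adjusted p = 0.0363), and that call was lost with DESeq2's size factors (adjusted p = 0.057), its Wald test (adjusted p = 0.0754), at least 10 counts in every library (adjusted p = 0.0574), and a fit of the compared groups alone (adjusted p = 0.0519), and without CCL21+RANK- replicate 1 (0.84, adjusted p = 0.173) or 2 (adjusted p = 0.0584), or CCL21-RANK+ replicate 2 (adjusted p = 0.102) or 3 (adjusted p = 0.13). For CCL21-RANK+ over CCL21-RANK- cells it was -2.16 (SE 0.59, adjusted p = 0.0134), and adjusted p = 0.107 without CCL21-RANK- replicate 2. Leaving out CCL21-RANK+ replicate 1 enlarged these log2 fold changes to 2.16 and -2.77.

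*Col6a3*, the chain that joins those of *Col6a1* and *Col6a2* in the common molecule, was at 0.200, 0.278, and 0.203 RPKM in CCL21+RANK- cells, at 2.44, 0.840, and 1.61 RPKM in CCL21-RANK+ cells, and at 0.139 and 0.0140 RPKM in CCL21-RANK- cells. It was higher in CCL21-RANK+ cells, with log2 fold changes of -2.69 (SE 0.64, adjusted p = 0.00599) for CCL21+RANK- over CCL21-RANK+ cells and 4.23 (SE 0.83, adjusted p = 0.00229) for CCL21-RANK+ over CCL21-RANK- cells. The second value was 6.77 when CCL21-RANK- replicate 1 was left out and 3.34 when replicate 2 was. *Col6a3* thus moved against *Col6a1* in both comparisons.

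*Col6a5* and *Col6a4* encode alternative chains related to that of *Col6a3*, and their genes lie in a row with *Col6a6* on the minus strand of chromosome 9. *Col6a5* was at 3.01, 2.82, and 2.95 RPKM in CCL21+RANK- cells, at 24.5, 16.1, and 18.3 RPKM in CCL21-RANK+ cells, and at 0.265 and 0.225 RPKM in CCL21-RANK- cells. The 3 groups were fully separate, and it was the only collagen gene called in the order CCL21-RANK+, CCL21+RANK-, CCL21-RANK-. The log2 fold changes were -2.62 (SE 0.15, adjusted p = 1.09e-06) for CCL21+RANK- over CCL21-RANK+ cells, 3.58 (SE 0.19, adjusted p = 3.25e-05) for CCL21+RANK- over CCL21-RANK- cells, and 6.19 (SE 0.21, adjusted p = 1.23e-07) for CCL21-RANK+ over CCL21-RANK- cells.

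*Col6a4* was at 3.69, 5.15, and 4.67 RPKM in CCL21+RANK- cells, at 5.68, 5.14, and 5.16 RPKM in CCL21-RANK+ cells, and at 0.574 and 0.393 RPKM in CCL21-RANK- cells. The first 2 groups overlapped (log2 fold change -0.12, SE 0.19, adjusted p = 0.633), while both were above CCL21-RANK- cells by 3.21 (SE 0.24, adjusted p = 0.000101) and 3.33 (SE 0.25, adjusted p = 5.18e-06). The ratio of *Col6a5* to *Col6a4*, per exon length, was 0.816, 0.547, and 0.631 in CCL21+RANK- cells, 4.32, 3.13, and 3.54 in CCL21-RANK+ cells, and 0.461 and 0.574 in CCL21-RANK- cells. *Col6a6* reached at most 0.217 RPKM.

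The 120 bases before the starts of *Col6a4* and *Col6a5* are shown because these were the collagen genes called higher in both reporter-positive populations than in CCL21-RANK- cells. They come from RefSeq (GRCm38.p6), and capitals again mark GGGCGG or its complement.
Col6a4, chr9:106096784-106096903, minus strand: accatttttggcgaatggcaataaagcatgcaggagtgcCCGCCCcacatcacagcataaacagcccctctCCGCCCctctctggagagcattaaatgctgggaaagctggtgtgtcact
Col6a5, chr9:105960644-105960763, minus strand: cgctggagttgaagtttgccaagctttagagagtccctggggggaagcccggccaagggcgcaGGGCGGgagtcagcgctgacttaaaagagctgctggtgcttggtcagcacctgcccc

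The *Col6a4* window holds 2 copies, beginning 81 and 49 bases before the start, and the *Col6a5* window holds 1, beginning 57 bases before it. Counted from the RefSeq start alone, *Col6a4* had no match in its 120 bases and *Col6a5* did.

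*Col8a2*, a short-chain collagen of the membrane under the corneal endothelium, was lower in CCL21+RANK- cells than in CCL21-RANK- cells. It was at 5.58, 5.31, and 9.67 RPKM in CCL21+RANK- cells, at 0.770, 1.43, and 1.02 RPKM in CCL21-RANK+ cells, and at 25.01 and 30.6 RPKM in CCL21-RANK- cells. No 2 groups overlapped. The log2 fold changes were 2.77 (SE 0.27, adjusted p = 2.36e-05) for CCL21+RANK- over CCL21-RANK+ cells, -2.03 (SE 0.27, adjusted p = 0.0017) for CCL21+RANK- over CCL21-RANK- cells, and -4.80 (SE 0.30, adjusted p = 2.21e-06) for CCL21-RANK+ over CCL21-RANK- cells. Its partner gene *Col8a1* was at 0 in all CCL21+RANK- libraries and reached at most 0.468 RPKM elsewhere.

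*Col13a1*, a transmembrane collagen, was at 0.0800, 0.184, and 0.102 RPKM in CCL21+RANK- cells, at 0.527, 0.0909, and 0.193 RPKM in CCL21-RANK+ cells, and at 0.802 and 1.47 RPKM in CCL21-RANK- cells, where it was highest. The log2 fold changes were -3.18 (SE 0.68, adjusted p = 0.0167) for CCL21+RANK- over CCL21-RANK- cells and -2.20 (SE 0.66, adjusted p = 0.0201) for CCL21-RANK+ over CCL21-RANK- cells. The first call was lost without CCL21-RANK- replicate 2 (adjusted p = 0.134) or CCL21+RANK- replicate 1 (adjusted p = 0.0555) or 3 (adjusted p = 0.0523). The second was lost without CCL21-RANK- replicate 2 (adjusted p = 0.147) or CCL21-RANK+ replicate 3 (adjusted p = 0.0801), and was -3.06 without CCL21-RANK+ replicate 1.

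Several of the fibril-associated collagens, which decorate the surface of fibrils, were high in CCL21-RANK+ cells. *Col14a1* was at 0.179, 0.195, and 0.0543 RPKM in CCL21+RANK- cells, at 24.5, 26.6, and 26.04 RPKM in CCL21-RANK+ cells, and at 0.249 and 0.209 RPKM in CCL21-RANK- cells. The CCL21-RANK+ libraries differed by a coefficient of variation of 4.16%, and replicate 1 was the lowest of them. The log2 fold changes were -7.37 (SE 0.39, adjusted p = 8.32e-07) and 6.69 (SE 0.45, adjusted p = 3e-06). *Col22a1*, a collagen of tissue junctions, was at 0.299, 0.399, and 0.402 RPKM, at 5.64, 4.18, and 5.17 RPKM, and at 0.114 and 0.197 RPKM, with log2 fold changes of -3.64 (SE 0.21, adjusted p = 1.16e-06) and 4.89 (SE 0.26, adjusted p = 1.08e-06). *Col19a1* was at 3.93, 2.30, and 3.58 RPKM, at 15.7, 11.3, and 14.03 RPKM, and at 2.06 and 2.63 RPKM, with values of -1.95 (SE 0.17, adjusted p = 1.18e-05) and 2.42 (SE 0.20, adjusted p = 1.12e-05).

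Of the type IX genes, whose product coats cartilage fibrils, *Col9a2* was called higher in CCL21-RANK+ cells than in both other groups. *Col9a2* was at 0.942, 0.611, and 0.821 RPKM in CCL21+RANK- cells, at 6.53, 2.59, and 4.80 RPKM in CCL21-RANK+ cells, and at 0.407 and 0.631 RPKM in CCL21-RANK- cells, with log2 fold changes of -2.42 (SE 0.33, adjusted p = 0.000201) and 3.03 (SE 0.39, adjusted p = 0.000187). *Col9a1* was at 1.77, 0.892, and 1.52 RPKM, at 4.32, 1.30, and 2.60 RPKM, and at 0.687 and 0.697 RPKM. Its first 2 groups overlapped and it was not called between them (-0.84, SE 0.37, adjusted p = 0.0776). Without CCL21-RANK+ replicate 2 it was called (-1.17, adjusted p = 0.00975), and without replicate 1 of that group it was at -0.41 (adjusted p = 0.322). It was called between CCL21-RANK+ cells and CCL21-RANK- cells (1.84, SE 0.44, adjusted p = 0.00662) and narrowly lost that call without CCL21-RANK- replicate 2 (adjusted p = 0.0547). *Col9a3* had means under 1 RPKM and was not called.

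*Col10a1*, a marker of hypertrophic cartilage cells, was at 0 in all 3 CCL21+RANK- libraries, at 4.98, 0.561, and 1.87 RPKM in CCL21-RANK+ cells, and at 0.00474 and 0 RPKM in CCL21-RANK- cells. The CCL21-RANK+ libraries held 1231 counts, so the gene was at least 439-fold higher than in CCL21+RANK- cells, taking 3 counts over the group as the floor. Replicate 1 held 893 of these counts, and without it the bound was 195-fold. In CCL21-RANK- cells 1 count was found, a ratio of 1140 with a 95% exact interval of 204 to 45062 that covers counting error only, and the ratio was 506 without CCL21-RANK+ replicate 1. Both differences were called (adjusted p = 0.000319 and 0.00104), although the CCL21-RANK+ libraries differed 8.88-fold among themselves. Its 120 bases before the start (RefSeq, GRCm38.p6) are shown because this was the most one-sided member, and capitals mark TATAAA, which begins 32 bases before the start.
Col10a1, chr10:34389861-34389980, plus strand: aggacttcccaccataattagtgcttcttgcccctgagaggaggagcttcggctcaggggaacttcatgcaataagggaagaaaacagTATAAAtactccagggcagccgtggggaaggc

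The remaining members with a mean over 1 RPKM were *Col16a1*, *Col12a1*, and *Col26a1*. *Col16a1*, a fibril-associated collagen, was at 15.4, 11.9, and 14.8 RPKM in CCL21+RANK- cells, at 34.6, 16.3, and 18.6 RPKM in CCL21-RANK+ cells, and at 7.97 and 12.3 RPKM in CCL21-RANK- cells. It was called between CCL21-RANK+ cells and CCL21-RANK- cells (log2 fold change 1.07, SE 0.27, adjusted p = 0.00888), but not without CCL21-RANK- replicate 1 (0.84, adjusted p = 0.0893). Its difference of CCL21+RANK- over CCL21-RANK+ cells (-0.59, SE 0.23, adjusted p = 0.0562) was called without CCL21-RANK+ replicate 2 (-0.77, adjusted p = 0.0213) or 3 (-0.76, adjusted p = 0.0448). Without CCL21-RANK+ replicate 1 this difference was -0.24 (adjusted p = 0.19). *Col12a1*, another of this group, was at 12.8, 9.64, and 8.87 RPKM, at 15.7, 12.3, and 10.1 RPKM, and at 9.02 and 8.86 RPKM, with no call and log2 fold changes between -0.15 (SE 0.18) and 0.38 (SE 0.20). *Col26a1* was at 1.81, 0.832, and 1.33 RPKM, at 1.01, 0.312, and 0.415 RPKM, and at 0.569 and 1.02 RPKM. Its call between the overlapping CCL21+RANK- and CCL21-RANK+ cells (1.33, SE 0.42, adjusted p = 0.0233) was lost without CCL21+RANK- replicate 1 (adjusted p = 0.0833) or CCL21-RANK+ replicate 2 (adjusted p = 0.0715) or 3 (adjusted p = 0.104), and its value was 1.93 without CCL21-RANK+ replicate 1.

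The 14 members below 1 RPKM on average were *Col3a1*, *Col4a3*, *Col4a4*, *Col6a6*, *Col7a1*, *Col8a1*, *Col9a3*, *Col11a1*, *Col11a2*, *Col20a1*, *Col23a1*, *Col24a1*, *Col25a1*, and *Col28a1*. Their values ranged from 0 to 0.496 RPKM in CCL21+RANK- cells, from 0.0286 to 1.68 RPKM in CCL21-RANK+ cells, and from 0 to 1.09 RPKM in CCL21-RANK- cells. CCL21-RANK+ cells had the highest group mean for 12 of them (85.7%) and for 31 of all 44 members (70.5%), while they had it for 50.0% of all genes tested. Of the 14, *Col4a3*, *Col6a6*, *Col7a1*, *Col8a1*, *Col9a3*, *Col20a1*, and *Col28a1* had an adjusted p below the threshold between CCL21+RANK- cells and CCL21-RANK+ cells but were too low to be called. *Col20a1* passed the threshold no longer without CCL21+RANK- replicate 1 (adjusted p = 0.0669) or 2 (0.0976) or CCL21-RANK+ replicate 1 (0.0914). The same held for *Col9a3* without CCL21+RANK- replicate 2 (adjusted p = 0.0975) or CCL21-RANK+ replicate 1 (0.0652). Against CCL21-RANK- cells, *Col4a3*, *Col4a4*, *Col6a6*, *Col8a1*, *Col20a1*, and *Col28a1* were higher in CCL21-RANK+ cells by the adjusted p. *Col24a1* (-2.02, SE 0.65, adjusted p = 0.0271) and *Col25a1* (-2.00, SE 0.30, adjusted p = 0.000425) were lower. *Col25a1* was also lower in CCL21+RANK- cells than in CCL21-RANK- cells (-1.48, SE 0.29, adjusted p = 0.0114). In CCL21-RANK+ cells *Col8a1* was at least 140-fold higher than in CCL21+RANK- cells, taking 3 counts over the group as the floor. Without CCL21-RANK+ replicate 1 this bound was 105-fold.

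Of 19 enzymes and chaperones that act on collagen chains in the endoplasmic reticulum, 10 (52.6%, beside 15.4% of all genes) were called higher in CCL21+RANK- cells than in CCL21-RANK+ cells [10 to 11] and none lower [0 to 2], with a median log2 fold change of 0.79 beside -0.11 for all genes. Among them were *Colgalt2*, which adds galactose to hydroxylysine (4.21, SE 0.20, adjusted p = 4.61e-07), *Fkbp10*, a chaperone (3.30, SE 0.27, adjusted p = 7.31e-06), *P4ha3*, a prolyl hydroxylase subunit (3.09, SE 0.19, adjusted p = 1.7e-06), and *P3h4*, a scaffold of lysyl hydroxylation (2.29, SE 0.20, adjusted p = 1e-05). *P4ha2* (-0.79, adjusted p = 0.00505) and *Plod2* (-0.67, adjusted p = 0.00522) were called lower in CCL21+RANK- cells when their replicate 1 was left out. Between CCL21-RANK+ cells and CCL21-RANK- cells 9 (47.4%, beside 15.1%) were lower [9 to 10] and 1 (5.26%, beside 14.4%), *P4ha2*, was higher [0 to 1] in CCL21-RANK+ cells, a call lost without CCL21-RANK- replicate 1 (adjusted p = 0.0538) or 2 (adjusted p = 0.0518). In the comparison of CCL21+RANK- with CCL21-RANK- cells only *Colgalt2* (5.26%, beside 3.66%) was called, higher in CCL21-RANK- cells [0 to 1] (-0.72, SE 0.18, adjusted p = 0.0331). That call was lost without any 1 library of these groups (adjusted p from 0.0627 to 0.223), while *Plod2* was called in its place without CCL21+RANK- replicate 1. *Serpinh1*, the collagen chaperone HSP47, was at 130.1, 119, and 137 RPKM in CCL21+RANK- cells, at 46.1, 58.0, and 55.5 RPKM in CCL21-RANK+ cells, and at 149 and 167 RPKM in CCL21-RANK- cells, and it was called lower in CCL21-RANK+ cells than in both (1.38, SE 0.13, adjusted p = 1.67e-05, and -1.68, SE 0.14, adjusted p = 1.04e-05).

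Of 8 procollagen export genes, 2 (25%) were higher [1 to 2] and 1 (12.5%) lower in CCL21+RANK- cells than in CCL21-RANK+ cells, near the background of 15.4% each way, and the coat protein gene *Sec24d* had the largest difference (1.36, SE 0.12, adjusted p = 1.06e-05). *Sec23a* lost its call without CCL21+RANK- or CCL21-RANK+ replicate 1, its fold then being under 1.5. Between CCL21-RANK+ cells and CCL21-RANK- cells 1 (12.5%) was higher and 1 (12.5%) lower, beside 14.4% and 15.1%, and the 8 genes did not pass the test between CCL21+RANK- cells and CCL21-RANK- cells. Of 9 genes for the cleavage of procollagen, 5 (55.6%) were higher and 1 (11.1%) lower [1 to 2] in CCL21+RANK- cells than in CCL21-RANK+ cells, beside 15.4% each way, among them the enhancer *Pcolce* (3.35, SE 0.39, adjusted p = 7.43e-05) and the propeptidase *Adamts3* (2.71, SE 0.15, adjusted p = 9.52e-07). *Furin* was added to the lower genes without CCL21-RANK+ replicate 2. Against CCL21-RANK- cells, 3 (33.3%, beside 4.35%) were higher [2 to 3] and 1 (11.1%, beside 3.66%) lower in CCL21+RANK- cells, and *Pcolce* lost that call without CCL21+RANK- replicate 1 or 2 or either CCL21-RANK- library. In CCL21-RANK+ cells 2 (22.2%, beside 14.4%) were higher and 4 (44.4%, beside 15.1%) lower [3 to 4] than in CCL21-RANK- cells.

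Cross-linking enzymes were divided. Of 7 genes, 2 (28.6%) were higher and 3 (42.9%) lower [2 to 3] in CCL21+RANK- cells than in CCL21-RANK+ cells, beside 15.4% each way, where transglutaminase 2, *Tgm2* (-4.46, SE 0.67, adjusted p = 0.000398, and -3.75 without CCL21-RANK+ replicate 1), and the lysyl oxidase family genes *Loxl4* (-2.70, SE 0.33, adjusted p = 0.000114) and *Loxl2* were higher in CCL21-RANK+ cells. In CCL21-RANK+ cells *Tgm2* had levels of 14.8, 4.51, and 4.82 RPKM. *Loxl2* lost its call without replicate 2 (adjusted p = 0.0811 and 0.0572) or 3 (adjusted p = 0.067 and 0.0514) of CCL21+RANK- and CCL21-RANK+ cells. *Lox*, the founding member of the family, was highest in CCL21+RANK- cells, at 14.6, 7.58, and 7.25 RPKM, against 3.26, 2.34, and 2.95 RPKM and 0.611 and 0.956 RPKM in the other groups. It was higher than in CCL21-RANK+ cells (1.91, SE 0.27, adjusted p = 0.000295) and than in CCL21-RANK- cells (3.66, SE 0.35, adjusted p = 0.000326). Compared with CCL21-RANK- cells, 4 cross-linking genes (57.1%, beside 14.4%) were called in CCL21-RANK+ cells and 2 (28.6%, beside 4.35%) in CCL21+RANK- cells [1 to 3], all of them higher. The count of 1 came without CCL21-RANK- replicate 2, where *Loxl2* lost its call (adjusted p = 0.0512).

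Of 11 collagen receptor genes 9 could be tested, and 2 (22.2%) were higher [1 to 2] and 1 (11.1%) lower in CCL21+RANK- cells than in CCL21-RANK+ cells, near the background of 15.4% each way. *Ddr1*, a collagen-binding receptor tyrosine kinase of epithelia, was at 123, 103, and 124 RPKM, at 32.3, 33.9, and 30.1 RPKM, and at 95.04 and 121 RPKM, with a log2 fold change of 1.98 (SE 0.12, adjusted p = 1.33e-06). *Itga1*, an integrin chain that binds collagen, was at 1.41, 0.927, and 0.845 RPKM in CCL21+RANK- cells, at 0.515, 0.212, and 0.342 RPKM in CCL21-RANK+ cells, and at 0.219 and 0.302 RPKM in CCL21-RANK- cells. It was called higher in CCL21+RANK- cells than in both (1.72, SE 0.31, adjusted p = 0.00113, and 2.04, SE 0.36, adjusted p = 0.00632). Both calls were lost without CCL21+RANK- replicate 1, which left a mean under 1 RPKM, and the second also without CCL21-RANK- replicate 1 (adjusted p = 0.0723) or 2 (adjusted p = 0.0524). Against CCL21-RANK- cells, *Itga1* was the 1 receptor (11.1%, beside 4.35%) higher in CCL21+RANK- cells [0 to 1], and 1 (11.1%, beside 3.66%) was lower. In CCL21-RANK+ cells 1 (11.1%, beside 14.4%) was higher and 2 (22.2%, beside 15.1%) were lower than in CCL21-RANK- cells.

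Of 13 genes for collagen degradation and its inhibitors, 4 (30.8%) were higher and 2 (15.4%) lower [1 to 2] in CCL21+RANK- cells than in CCL21-RANK+ cells, and the background was 15.4% each way. *Mmp2*, a gelatinase that cleaves type IV collagen, was at 29.7, 24.6, and 31.8 RPKM, at 1.74, 2.48, and 1.44 RPKM, and at 30.1 and 26.5 RPKM (4.03, SE 0.22, adjusted p = 9.08e-07). *Ctsk*, the gene of the collagen-cleaving protease cathepsin K, was at 2.38, 0.106, and 0.804 RPKM in CCL21-RANK+ cells and at most 0.144 RPKM elsewhere. Its call between CCL21+RANK- cells and CCL21-RANK+ cells (-3.54, SE 1.07, adjusted p = 0.0188) was lost without CCL21-RANK+ replicate 1 (-2.33, adjusted p = 0.099) or CCL21+RANK- replicate 1 (adjusted p = 0.0544) or 3 (adjusted p = 0.0565). Against CCL21-RANK- cells, 1 gene (7.69%, beside 4.35%) was higher [0 to 2] and 1 (7.69%, beside 3.66%) lower in CCL21+RANK- cells. The former, *Mmp14*, lost its call without CCL21+RANK- replicate 1 (adjusted p = 0.0531) or CCL21-RANK- replicate 1 (adjusted p = 0.166), and *Mmp9* was added without CCL21-RANK+ replicate 1. In CCL21-RANK+ cells 2 (15.4%, beside 14.4%) were higher [1 to 2] and 4 (30.8%, beside 15.1%) lower than in CCL21-RANK- cells, and *Ctsk* lost this call without CCL21-RANK+ replicate 1 or either CCL21-RANK- library.

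The partners of type IV collagen in the basement membrane went in both directions. Of 18 genes, 10 (55.6%) were higher [9 to 10] and 4 (22.2%) lower [4 to 5] in CCL21+RANK- cells than in CCL21-RANK+ cells, beside 15.4% each way. The laminin genes *Lamb3* (3.44, SE 0.22, adjusted p = 1.99e-06) and *Lama5* (2.72, SE 0.11, adjusted p = 2.77e-07) had the largest differences in that direction, while the calcium-binding proteins *Smoc1* (-3.42, SE 0.28, adjusted p = 8e-06) and *Smoc2* (-3.36, SE 0.21, adjusted p = 1.91e-06) led the other. The nidogens, which link laminin to type IV collagen, were both higher in CCL21-RANK+ cells than in CCL21+RANK- cells. In CCL21-RANK+ cells 3 (16.7%, near the background of 14.4%) were higher [2 to 4] and 9 (50%, beside 15.1%) lower [8 to 9] than in CCL21-RANK- cells. Between CCL21+RANK- cells and CCL21-RANK- cells 4 (22.2%, beside 4.35%) were higher [0 to 5] and 4 (22.2%, beside 3.66%) lower [2 to 4]. These counts rested on both CCL21-RANK- libraries. Without replicate 1 of that group 0 were higher and 2 lower, and without replicate 2 these counts were 1 and 3. The laminin genes *Lama1*, *Lamb2*, and *Lamb3* lost their calls without either library.

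Of 9 fibril-associated proteoglycan genes, 4 (44.4%) were called [3 to 5], all higher in CCL21-RANK+ cells than in both other groups, beside 15.4% and 14.4% of all genes, and led by *Epyc* and *Lum* against CCL21+RANK- cells. Of the 4, *Lum* and *Dcn* are counted again among the fibroblast markers below, and *Epyc* among the chondrocyte markers. The 9 did not pass the test between the other groups. *Bgn*, the gene of biglycan, was at 2.39, 0.464, and 1.09 RPKM in CCL21-RANK+ cells and at most 0.0784 RPKM elsewhere, and without CCL21-RANK+ replicate 1 its mean was too low for either call. Its call against CCL21-RANK- cells was also lost without replicate 2 of those (adjusted p = 0.0529).

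**Figure D4:**
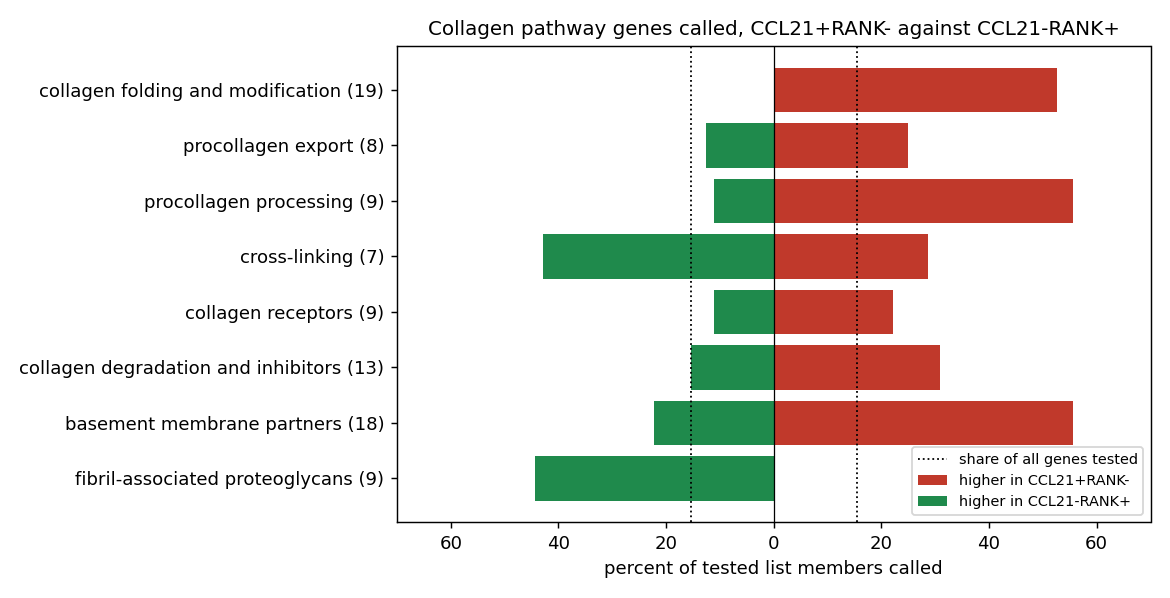
Percent of the tested genes of each collagen pathway list (number tested in brackets) that were called higher in CCL21+RANK- cells (to the right) or in CCL21-RANK+ cells (to the left). Dotted lines mark the 15.4% of all genes tested in each direction. Folding and modification genes were called in 1 direction (52.6%) and proteoglycans in the other (44.4%).

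Markers of several cell types other than TECs were also higher in CCL21-RANK+ cells. All 8 macrophage markers were called higher in CCL21-RANK+ cells than in each other group [5 to 8], beside 15.4% and 14.4% of all genes, led by *Lyz2* at 52.3, 14.7, and 17.9 RPKM, and summed to 82.6, 22.9, and 28.3 RPKM against at most 1.46 RPKM in any other library. Without CCL21-RANK+ replicate 1, *C1qc*, *Cd68*, and *Csf1r* lost both calls, and without CCL21-RANK- replicate 2, *C1qa*, *C1qc*, and *Cd68* lost that against CCL21-RANK- cells. *Cd68* kept its call against CCL21+RANK- cells (-1.91, SE 0.71, adjusted p = 0.0435) only when CCL21+RANK- replicate 1 was the library left out. Of 17 fibroblast markers, 7 (41.2%) were higher and 1 (5.88%) lower [1 to 3] in CCL21-RANK+ cells than in CCL21+RANK- cells, beside 15.4% each way, and the count of 3 came without CCL21+RANK- replicate 2, which added *Fbln1* and *Twist1*. Compared with CCL21-RANK- cells, 9 (52.9%, beside 14.4%) were higher [6 to 9] and 1 (5.88%, beside 15.1%) lower [1 to 2]. *Fbln2* and *Meox1* lost this call without CCL21-RANK+ replicate 1 or either CCL21-RANK- library, and *Fbn1* without CCL21-RANK- replicate 1, which added *Twist2* to the lower genes. Their sum was 137, 133, and 137 RPKM in CCL21-RANK+ cells, 41.3, 29.0, and 30.3 RPKM in CCL21+RANK- cells, and 32.6 and 38.3 RPKM in CCL21-RANK- cells, with *Vim* the most abundant in CCL21-RANK+ cells. *Pdgfrb* was at 6.82, 4.06, and 4.83 RPKM there, whereas *Pdgfra*, a defining fibroblast gene, did not exceed 0.122 RPKM in these libraries and 0.262 RPKM in any.

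Pericyte markers summed to 131, 78.2, and 71.9 RPKM in CCL21-RANK+ cells, mostly *Rgs5*, with 4 (57.1%) of the 7 tested higher [3 to 4] and 1 (14.3%), *Notch3*, lower [0 to 1] than in CCL21+RANK- cells, beside 15.4% each way. Compared with CCL21-RANK- cells, 4 (57.1%, beside 14.4%) were higher [3 to 4] and 1 (14.3%, beside 15.1%), *Mcam*, was lower. The call of *Notch3* was lost without CCL21+RANK- replicate 1 or 2, CCL21-RANK+ replicate 1 or 2, or CCL21-RANK- replicate 2, its fold (log2 0.59) being near 1.5, and that of *Mcam* without CCL21-RANK- replicate 2 (adjusted p = 0.126), where *Notch3* was called instead. *Acta2* lost its first call without CCL21+RANK- replicate 2 or CCL21-RANK+ replicate 1 or 3, and its second without either CCL21-RANK- library. In the other groups their sums were 18.7, 12.9, and 10.6 RPKM and 8.35 and 9.43 RPKM. Endothelial markers summed to 12.9, 7.33, and 5.59 RPKM, led by *Plvap*, with 3 (30%, beside 15.4% and 14.4%) of the 10 tested higher than in each other group [1 to 3]. Without CCL21-RANK+ replicate 1, *Tek* and *Cldn5* averaged under 1 RPKM and *Plvap* alone was called. *Pecam1* and *Cdh5* stayed under 1 RPKM in all libraries and so were not called, but they were higher in CCL21-RANK+ cells by the adjusted p, at log2 fold changes of -1.69 (SE 0.40, adjusted p = 0.00589) and -4.24 (SE 1.26, adjusted p = 0.017) for CCL21+RANK- over CCL21-RANK+ cells and 2.94 (SE 0.50, adjusted p = 0.000995) and 4.71 (SE 1.52, adjusted p = 0.0271) for CCL21-RANK+ over CCL21-RANK- cells. *Emcn* was at 0 in CCL21+RANK- and *Cldn5* at 0 in CCL21-RANK- cells. Schwann and neural crest markers summed to 23.97, 12.04, and 16.5 RPKM, led by *Erbb3*, with 4 of 6 (66.7%, beside 15.4% and 14.4%) higher than in each other group [2 to 4]. The count of 2 came without CCL21-RANK+ replicate 1, where *Foxd3* and *Sox10* averaged under 1 RPKM, and in the second comparison also without CCL21-RANK- replicate 2. Thymocyte markers summed to 23.96, 10.2, and 19.6 RPKM, led by *Rag1*, and to 13, 5.49, and 7.25 RPKM and 3.98 and 3.53 RPKM in the other groups, so that CCL21+RANK- replicate 1 lay above CCL21-RANK+ replicate 2. Of 12, 2 (16.7%, near the background of 15.4%) were higher in CCL21-RANK+ cells than in CCL21+RANK- cells [2 to 3] and 5 (41.7% beside 14.4%) than in CCL21-RANK- cells [2 to 6]. Without CCL21-RANK- replicate 2 the latter count was 2, with *Cd8a*, *Cd8b1*, and *Rag1* lost.

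Of 9 chondrocyte markers 8 were tested. *Acan*, *Ucma*, *Epyc*, and *Matn1* were called higher in CCL21-RANK+ cells than in CCL21+RANK- cells (50% [2 to 4]) and *Cnmd* lower (12.5% [0 to 1]), beside 15.4% each way, and 5 (62.5%, beside 14.4%) were higher than in CCL21-RANK- cells [4 to 5]. The first call of *Matn1* was lost without CCL21+RANK- replicate 2 or 3 or any 1 CCL21-RANK+ library (adjusted p from 0.0618 to 0.139). That of *Cnmd* was lost without CCL21+RANK- replicate 1 (1.94, adjusted p = 0.0755) or CCL21-RANK+ replicate 3 (adjusted p = 0.0874), and *Acan* averaged under 1 RPKM without CCL21-RANK+ replicate 1. *Ucma* led in CCL21-RANK+ cells, at 76.3, 28.1, and 37.5 RPKM, and *Acan*, the main cartilage proteoglycan, was at 1.94, 0.547, and 0.836 RPKM there and at 0 in CCL21+RANK- cells, as were *Hapln1* and *Snorc*. *Cnmd* was highest in CCL21+RANK- cells, at 371, 96.5, and 127 RPKM, and set that group's summed level of 398, 117, and 150 RPKM, against 196, 70.8, and 97.2 RPKM in CCL21-RANK+ and 20.3 and 37.7 RPKM in CCL21-RANK- cells. *Snorc* was also at 0 in CCL21-RANK- cells.

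All 4 parathyroid markers were higher in CCL21+RANK- cells than in both other groups, beside 15.4% and 4.35% of all genes, with *Chga* the most abundant on average, and their sums in the other groups were 11.1 to 24.9 RPKM. Of 10 thymic epithelial markers, 6 (60%) were higher and 2 (20%), *Aire* and *Epcam*, lower in CCL21+RANK- cells than in CCL21-RANK+ cells, beside 15.4% each way, and their sums were 5162, 5114, and 5892 RPKM, 2030, 2175, and 1818 RPKM, and 4612 and 4931 RPKM. *Krt18* was the most abundant of the list in CCL21+RANK- and CCL21-RANK- cells and *Krt8* in CCL21-RANK+ cells. In CCL21-RANK+ cells *Aire*, *Krt14*, *Krt5*, and *Epcam* (40%, beside 14.4%) were higher than in CCL21-RANK- cells [3 to 4], and 5 (50%, beside 15.1%) were lower. *Krt5* and *Krt14* (20%, beside 4.35%) were also higher in CCL21+RANK- cells than in CCL21-RANK- cells. *Epcam*, the sorted surface protein, was at 156, 123, and 121 RPKM in CCL21-RANK+ cells, and *Aire* at 130.9, 94.1, and 114 RPKM, against at most 0.810 RPKM elsewhere. Between CCL21+RANK- and CCL21-RANK- cells, *Vim*, *Fbn1*, and *Postn* (17.6% of fibroblast markers [2 to 4]) were higher in the former and *Fbln1* (5.88%, beside 3.66%) lower. *Des* and *Rgs5* (28.6% [0 to 2], pericyte), *Matn1* and *Cnmd* (25% [0 to 2], chondrocyte), *Cd8b1* (8.33% [0 to 2], thymocyte), and *Erbb3* (16.7% [0 to 1], neural crest) were also higher, beside 4.35%. Of these fibroblast, pericyte, chondrocyte, thymocyte, and neural crest genes called higher, only *Vim*, *Fbn1*, and *Rgs5* stayed called without CCL21+RANK- replicate 1. *Rgs5* rested on both CCL21-RANK- libraries. *Postn*, *Des*, *Cnmd*, *Cd8b1*, and *Erbb3* also lost their calls without either CCL21-RANK- library, and *Matn1* without replicate 2 of that group. The part of any of these markers in the collagen results was not tested.

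**Figure D5:**
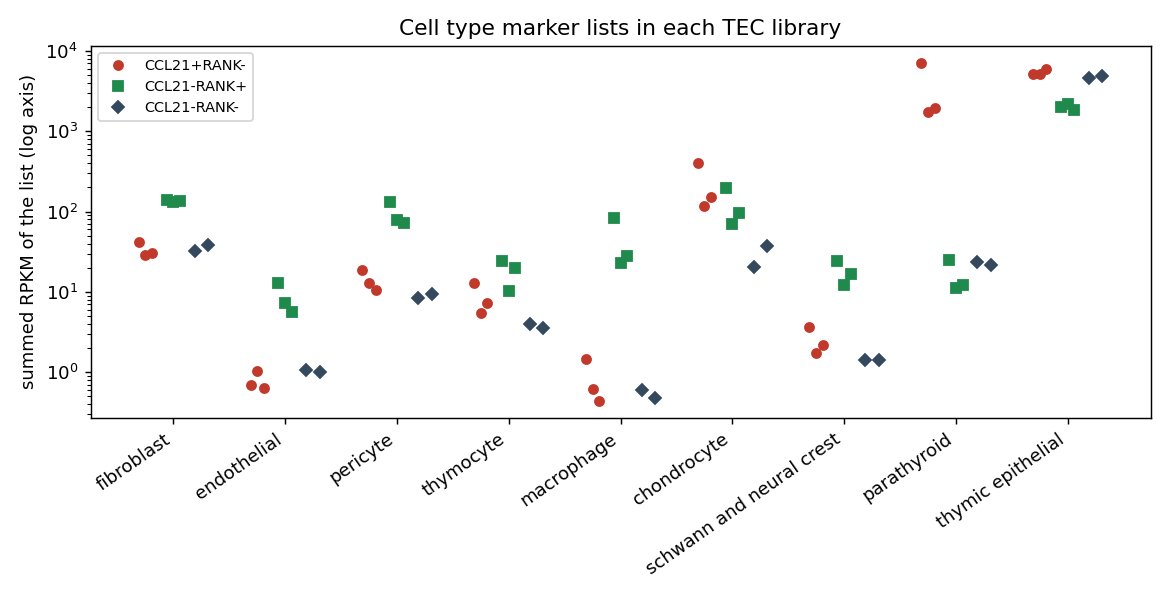
Summed RPKM on a log axis (vertical) of each cell type marker list in each library. Macrophage, endothelial, pericyte, fibroblast, and Schwann and neural crest lists are higher in the 3 CCL21-RANK+ libraries than in the other 5, parathyroid markers are higher in CCL21+RANK- libraries, and thymic epithelial markers are lowest in CCL21-RANK+ libraries but present in all.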

How the data were processed

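RNA from sorted TECs was sequenced in 8 libraries. The authors deposited 1 table of expected counts per gene from RSEM, and the submitters' processing notes name bcl2fastq 2.20, Trimmomatic, STAR 2.5.1, RSEM 1.3.1, and mm10. The study's methods name another package for its analysis and another library kit than the sample records do, and whether counting used strand is not given in the sources used here. Overlapping genes are therefore uncertain, although no more than 6.07% of a member's exon bases overlapped another gene. Counts were rounded to whole numbers (4.47% to 5.94% of values per library were not whole), and all 55450 gene identifiers were found in GENCODE M21 (GRCm38), the source of positions and exon lengths. RPKM used library totals, of which *Gm26917* took 6.89% to 19.4% and *Gm42418* 1.47% to 10.7%.

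Groups came from the sample labels. One edgeR 4.0.16 fit (R 4.3.3, TMM, default expression filter, quasi-likelihood test, Benjamini-Hochberg adjustment over 21451 genes) covered all libraries and was tested on simulated data. Each SE was the size of the log2 fold change divided by the square root of the F statistic of the quasi-likelihood test. The common biological coefficient of variation was 0.326, which exceeds counting error for expressed genes. Replicates differed by more than sampling noise (chi-square per gene 84.9 to 301). Alternatives used DESeq2 1.42.0 and those listed in the closing section. Ratios used scipy 1.17.1, and figures matplotlib 3.10.9. Members with a mean over 1 RPKM in a group were named with every library, and up to 4 called genes with the largest differences per pathway list. The members and lists were chosen with earlier results of these data known.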

Additional observations from a re-analysis of the deposited data

How the results depend on the processing

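Alternatives were DESeq2's size factors, upper-quartile scaling, DESeq2's Wald test, the replicate block, no filter on low counts, a minimum of 10 counts per library, a fit restricted to the compared groups, an adjusted p-value alone, a test of a fold change over 1.5, removal of *Gm26917* and *Gm42418*, and leaving out each library. Of 54 called values of named members 43 kept their call under every alternative that was refitted, and the 11 others are given with the genes above or with the replicate block below. Between CCL21+RANK- and CCL21-RANK+ cells the adjusted p-value alone raised the genes higher in CCL21-RANK+ cells from 13 to 20, with 30.6% of all genes passing. Between CCL21+RANK- and CCL21-RANK- cells the genes higher in CCL21+RANK- cells rose from 2 to 6 by DESeq2's Wald test, which added *Col4a1*, *Col4a2*, *Col4a6*, and *Col17a1* and called 5.74% of all genes in that direction, to 5 with no filter, and to 4 in the restricted fit. Leaving out 1 library gave 8 to 10 and 12 to 17 genes higher in CCL21+RANK- and CCL21-RANK+ cells, 2 to 3 and 1 to 3 higher in CCL21+RANK- and CCL21-RANK- cells, and 15 to 18 and 6 to 10 higher in CCL21-RANK+ and CCL21-RANK- cells. The value of 6 came without CCL21-RANK- replicate 2, and that of 1 without CCL21-RANK- replicate 2 or CCL21+RANK- replicate 1 or 3. A group left with 1 library was assumed to vary like the others. Calls absent from the reported fit appeared for *Col16a1*, *Col17a1*, and *Col9a1* between CCL21+RANK- and CCL21-RANK+ cells under 7, 4, and 5 alternatives, and for *Col5a1* between CCL21-RANK+ and CCL21-RANK- cells under 5. Between CCL21+RANK- and CCL21-RANK- cells, *Col4a6* (1.56 in the reported fit, adjusted p = 0.0944) and *Col17a1* (1.32, adjusted p = 0.128) gained a call under 4 each. For *Col4a6* the replicate block was among them. *Col4a1* and *Col4a2* did so under 2, and *Col9a1* and *Col19a1* under 1.

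No called value turned its sign. For CCL21+RANK- over CCL21-RANK+ cells, *Col5a1* turned to -0.06 with DESeq2's size factors and its Wald test, -0.04 with upper-quartile scaling, -0.02 with no filter, -0.10 with at least 10 counts, and from -0.12 to 0.25 without 1 library, and *Col6a4* (-0.12) ranged from -0.30 to 0.01, the latter without CCL21+RANK- replicate 1. For CCL21+RANK- over CCL21-RANK- cells, *Col6a1* (-0.08) turned to 0.01 with the replicate block and ranged from -0.33 to 0.09 without 1 library, *Col1a1* (-0.78) from -1.64 to 1.57, the latter without CCL21-RANK- replicate 1, and *Col1a2* (0.18) from 0.85 to -0.29, the latter without CCL21-RANK- replicate 2. The cause was not tested. DESeq2's size factors moved the median log2 fold change of all genes from -0.11 to -0.20 for CCL21+RANK- over CCL21-RANK+ cells and from 0.06 to 0.20 for CCL21-RANK+ over CCL21-RANK- cells.

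Whether libraries of the same number share embryos is not given in the sources used here, and the numbers were not taken to pair them. Between CCL21+RANK- and CCL21-RANK+ libraries, the correlation of deviations was 0.126, 0.0485, and 0.0707 for the same number. For different numbers it ranged from -0.0984 to 0.041. Against CCL21-RANK- libraries of the same number it was -0.0528 and -0.117 for CCL21+RANK- cells and -0.0519 and -0.0411 for CCL21-RANK+ cells. These values do not settle the pairing. With the replicate block, 10 and 14 genes were called higher in CCL21+RANK- and CCL21-RANK+ cells, 3 and 2 higher in CCL21+RANK- and CCL21-RANK- cells, and 17 and 8 higher in CCL21-RANK+ and CCL21-RANK- cells, with *Col4a1* (adjusted p = 0.0642) and *Col13a1* (adjusted p = 0.0591) losing their calls in the last. With 2 libraries in 1 group, differences that involve CCL21-RANK- cells rest on less, and levels below about 1 RPKM were too low to be called.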
